A study of Homo sapiens with 6 samples.

Results

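This account concerns 32 genes whose transcripts stood higher after 6 h of recovery from p53 activity than either with p53 on or with p53 off. The gene value was the median log2 signal of the probe sets that carry that 1 gene symbol. A gene entered when its mean over the 6 arrays was over 3.62 and when, in each of the 2 experiments, its recovery value exceeded both the p53 on and the p53 off value by at least 0.5 log2 units, a 1.41-fold difference. The 32 genes are 0.228% of the 14018 genes over that dim value. The members were thus chosen by the measured differences of recovery from p53 on and from p53 off. The recovery arrays enter both differences, so the choice favours high recovery values, and the recovery differences below are given as a description without a test.

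All 6 cultures were HT29-tsp53, made from HT-29, an established human colorectal adenocarcinoma line, by adding a transgene for murine p53 with the V135A change. This p53 is inactive at the restrictive and active at the permissive temperature. The p53 off cultures stayed at the restrictive temperature, given as 38 °C in part of the label fields and as 37 °C elsewhere. The p53 on cultures spent 16 h at 32 °C, and the recovery cultures spent 16 h at 32 °C and then 6 h back at the restrictive temperature, although a label field of the recovery samples names 32 °C for those 6 h. Each group had 1 array in experiment 1 and 1 in experiment 2, so n = 2 arrays per group, and p-values measure the spread between these arrays only. The 6 samples include no culture given the same temperature steps without the transgene, so p53 activity and temperature cannot be told apart.

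The p53 protein is a transcription factor that induces arrest, repair and death genes, and it lowers many proliferation genes indirectly through the inhibitor p21 and the E2F and DREAM repressor complexes. HT-29 cells also carry NF-kB, Wnt and growth factor signalling, whose targets include survival factors, feedback inhibitors and secreted ligands. Replication genes are transcribed in late G1 and S phase, and mitosis genes later in the cycle. Of 12 colon epithelium markers, 12 lay over the dim value, with KRT18, an epithelial keratin, at a mean of 12.46. The fibroblast markers had 5 of 11 over it and a median of 3.21, the leukocyte markers 5 of 11 and a median of 3.32, and the endothelial markers 3 of 6 and a median of 3.59. LYZ, the lysozyme gene, had the highest leukocyte marker value at 11.21. Over the 3 groups the median of the markers ran from 3.15 to 3.47 for fibroblast, 3.16 to 3.44 for leukocyte and 3.44 to 3.67 for endothelial markers, and their part in the results was not tested. In bulk RNA, fewer cells of a type and less RNA per cell cannot be told apart.

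Recovery over p53 on ranged from 1.49-fold to 4.76-fold with a median of 1.83-fold, and recovery over p53 off from 1.45-fold to 2.69-fold with a median of 1.70-fold. Over all genes tested, limma called 0.428% in recovery against p53 on and 0.0285% in recovery against p53 off. With the replicate block these shares were 7.23% (3.85% higher and 3.39% lower) and 0.599% (0.207% higher and 0.392% lower). Both contrasts chose the members, so no calls of members are given for them. In 28 of the 32 genes (87.5%) both recovery arrays stood above all 4 others, a pattern of 7.21% of all genes tested that the rule itself favours. NMNAT1, BIRC3, HEATR5B and RAB27B were the 4 genes with an overlap, since the rule compares arrays only within an experiment. The same rule turned downward found 40 genes lowest in recovery. Among all tested genes, 441 were highest and 448 lowest in p53 on by the same margin, and 170 were highest and 126 lowest in p53 off.

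**Figure D1:**
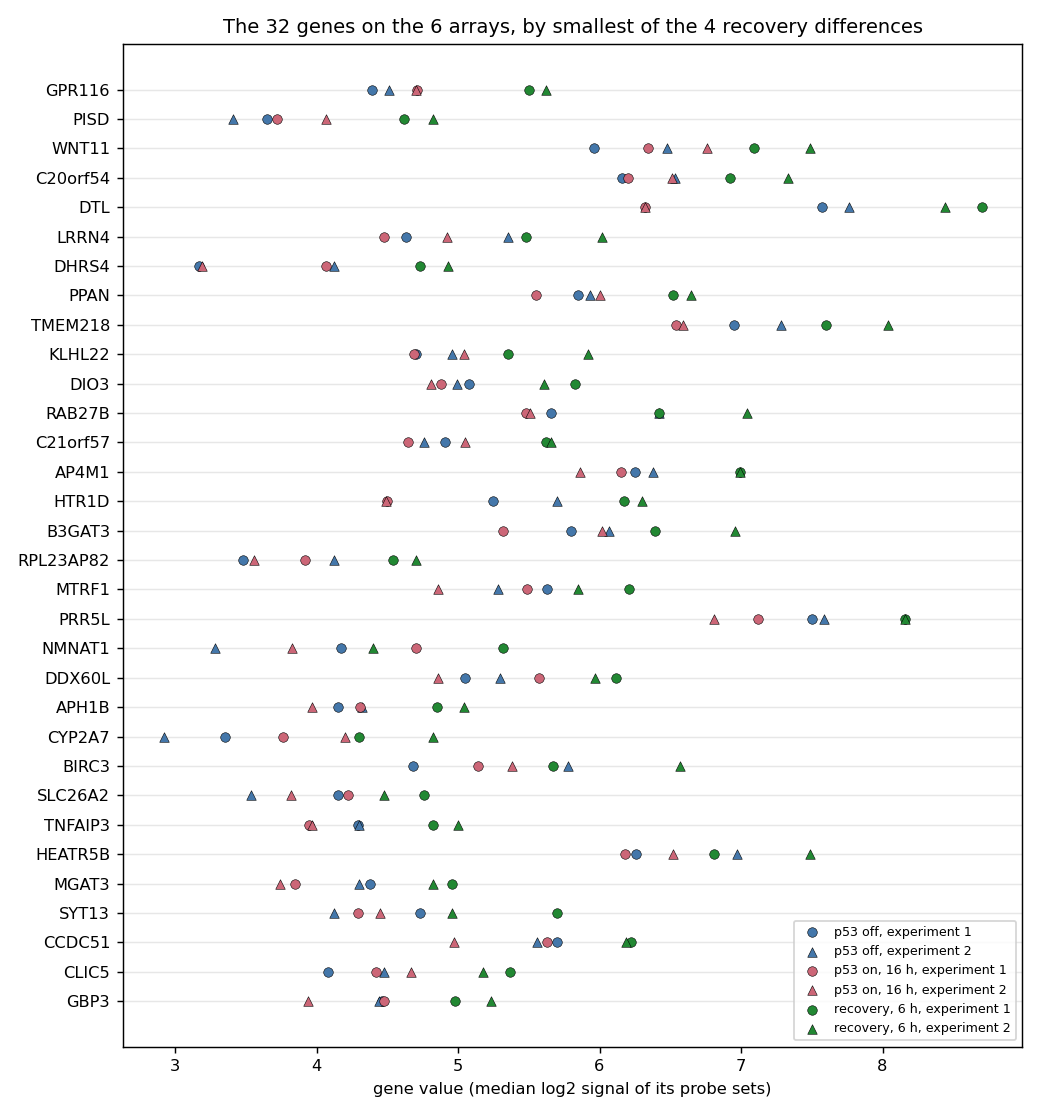
Gene values (median log2 signal, horizontal axis) of the 32 genes on the 6 arrays, with p53 off in blue, p53 on in red and recovery in green, circles for experiment 1 and triangles for experiment 2. Within each experiment the green point lies at least 0.5 to the right of the other 2, and NMNAT1, BIRC3, HEATR5B and RAB27B are the 4 rows in which green and other points overlap or touch.

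The members differed in their p53 on values. In p53 on, 14 genes (43.8%) lay below control in both experiments, against 31.6% of all genes tested. In 9 genes (28.1%) both p53 on arrays lay below both p53 off arrays, against 20.6%, and in 3 (9.38%) above them, against 22.6%. Considering each experiment, 7 (21.9%) lay above control in both, against 33.4%, and 11 (34.4%) moved in opposite directions in the experiments. The mean difference between p53 on and p53 off ran from -1.35 for DTL to 0.85 for CYP2A7, with a median of -0.11 against 0.02 for all genes. In limma, 1 member was called in this comparison, DTL as lower (3.12% of members), where 1.48% of all genes tested were called, 0.899% higher and 0.585% lower. With the experiment as a replicate block, DTL and HTR1D were called as lower (6.25% of members), where 11.5% of all genes were called, 5.18% higher and 6.28% lower. At an unadjusted p under 0.05 there were 5 members (15.6%), beside 15.4% of all genes. The rule bounds the distance of both groups from recovery by the same margin, so this contrast is not fully free of the choice of members.

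**Figure D2:**
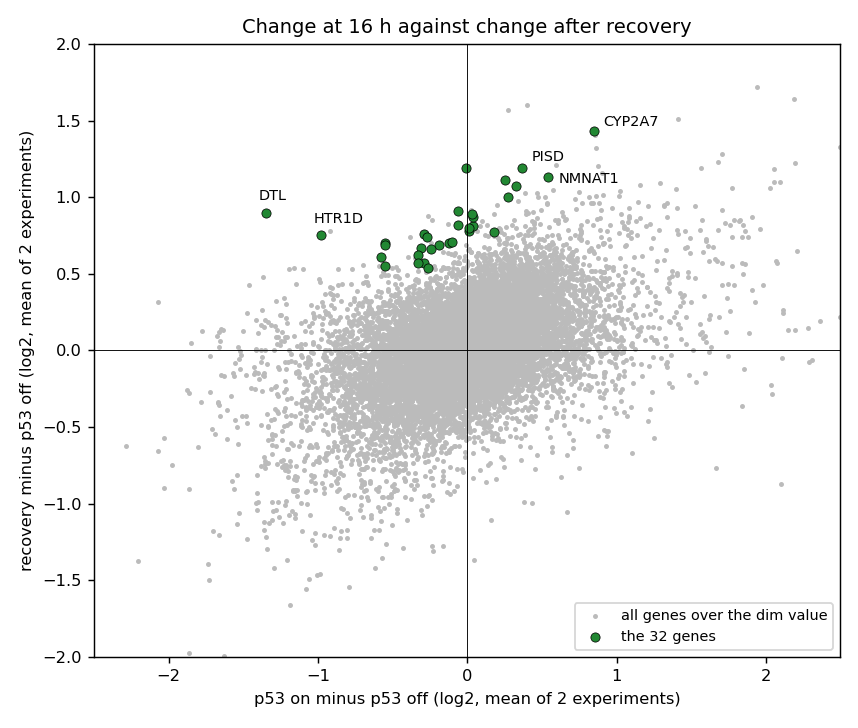
Difference of p53 on from p53 off (horizontal axis) against difference of recovery from p53 off (vertical axis), both in log2 units and as means of the 2 experiments, for all 14018 genes in grey and the 32 genes in green; axes are limited, so some grey points lie outside. DTL and HTR1D lie far to the left, at -1.35 and -0.98, and CYP2A7 lies farthest to the right, at 0.85.

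Among the cell cycle genes the member was DTL, also called CDT2, the substrate receptor of a ubiquitin ligase that marks the licensing factor CDT1 for destruction in S phase. Its values were 7.57 and 7.76 in p53 off, 6.32 in each p53 on array, and 8.70 and 8.44 in recovery, in experiment 1 and 2 in turn. Both p53 on arrays were the lowest and both recovery arrays the highest, with no overlap between any of the groups. In p53 on DTL fell by 1.35 ± 0.20 log2 units (limma, SE, n = 2 arrays per group, adjusted p = 0.0395, or 0.00362 with the replicate block). Leaving out any 1 of the 6 arrays ended that call without the block, with differences from -1.44 to -1.25. From p53 on, recovery then stood 4.76-fold higher, the largest such difference of the 32 genes, and it ended 1.87-fold above p53 off. Of its 17 probe sets, 15 were highest in recovery in both experiments and 13 by at least 0.5.

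The list of G1/S and replication genes, DTL included, spread to both sides of its control level in recovery. Of its 40 genes over the dim value, 13 (32.5%) were highest in recovery in both experiments, beside 14.9% of all genes tested. DTL, which the rule chose for that pattern, is among the 13 and is also counted in the list values that follow. Of the 40, 3 were called higher in recovery than in p53 on without the block and 21 higher and 1 lower with it, where 0.143% and 3.85% of all genes tested were called higher. Their median difference was 0.75 (0.02 for all genes), and after recovery their median difference from p53 off was -0.00 (0.03 for all genes). MCM10, a replication initiation factor, had 7.80 and 7.88 in p53 off, 6.36 and 5.99 in p53 on, and 8.03 and 7.89 in recovery, a rise from p53 on of 1.79 ± 0.21 (limma, adjusted p = 0.0277). With only the 4 arrays compared, 0 genes of the whole table were called higher in recovery than in p53 on, so the call of MCM10 was lost. With the 4 arrays, 1534 genes had an unadjusted p under 0.05 in either direction. CCNE1, which encodes cyclin E1, a driver of S phase entry, came close to the margin, with a smallest recovery difference of 0.47. CCND1, the cyclin D1 gene, which acts earlier in G1, had 8.05 and 7.57 in p53 off, 8.39 and 7.77 in p53 on, and 8.80 and 8.29 in recovery. GINS2, a subunit of the replicative helicase, differed from p53 off by -0.90 in recovery, the lowest value of the list. Of 33 mitosis genes, 0 stood highest in recovery in both experiments, and their median difference of recovery from p53 off was -0.87. The lists were compared by these counts and medians alone.

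The promoter of DTL is shown because this gene differed most between p53 on and the other groups. It is the 250 bases before the RefSeq start of DTL at chr1:212035498-212035747 (GRCh38.p14, plus strand), with the match to TTTNGCGC, a form of the E2F site, in capitals at the end of the window.
DTL: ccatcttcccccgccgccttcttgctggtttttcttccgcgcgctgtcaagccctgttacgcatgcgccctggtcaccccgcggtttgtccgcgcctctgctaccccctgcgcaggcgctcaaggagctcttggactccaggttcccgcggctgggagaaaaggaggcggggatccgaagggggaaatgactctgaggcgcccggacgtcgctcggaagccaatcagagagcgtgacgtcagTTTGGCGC

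NF-kB signalling, which drives inflammatory and survival genes and is shut off by inhibitors that it induces itself, had 2 members. BIRC3 encodes cIAP2, a ubiquitin ligase that protects cells from death signalled by TNF receptors. It stood at 4.68 and 5.78 in p53 off, 5.14 and 5.38 in p53 on, and 5.67 and 6.57 in the recovery arrays. Within each experiment recovery was the highest, but the recovery value of experiment 1 lay below the p53 off value of experiment 2. Recovery exceeded p53 on by 0.53 and 1.19 and p53 off by 0.99 and 0.79 in the experiments, and all 10 probe sets of BIRC3 were highest in recovery in both. With p53 on it differed from p53 off by 0.03 ± 0.43 (limma, adjusted p = 0.988), with opposite signs in the experiments.

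TNFAIP3 encodes A20, a ubiquitin-editing enzyme that ends NF-kB signalling. It stood at 4.29 and 4.30 with p53 off, 3.95 and 3.97 with p53 on and 4.82 and 5.00 after recovery. These gene values are close within each group and do not overlap between groups. Of its 9 probe sets, 0 were highest in recovery in both experiments, and with the mean of the probe sets in place of the median the smallest recovery difference was -0.06. The median passes from probe set to probe set between arrays, so the place of TNFAIP3 among the 32 genes rests on the summary used.

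The NF-kB and inflammation list was mixed. Of 22 genes over the dim value, 5 (22.7%) were highest in recovery in both experiments, beside 14.9% of all genes tested. These 5 include the 2 members, which the rule chose for that pattern, so the share is not read as a trait of the list. The 2 members were the only ones that passed the margin of 0.5. With the 2 members counted, the list's median difference of recovery from p53 on was -0.07 (0.02 for all genes). From p53 off it was 0.12 (0.03 for all genes). PTGS2, the inducible cyclooxygenase gene, was the list's 1 call against p53 on without the block and was lower in recovery, from 7.61 and 8.53 in p53 on to 5.18 and 5.00 in recovery (limma, -2.98 ± 0.33, adjusted p = 0.0245). With the replicate block the list had 1 call higher and 1 lower. These counts cover the 2 members, which the rule chose by this contrast. The higher call is therefore not read as a trait of the list. NFKBIA, which encodes the inhibitor IkB-alpha, lay below both other groups in recovery in both experiments, with differences from -0.59 to -0.44.

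**Figure D3:**
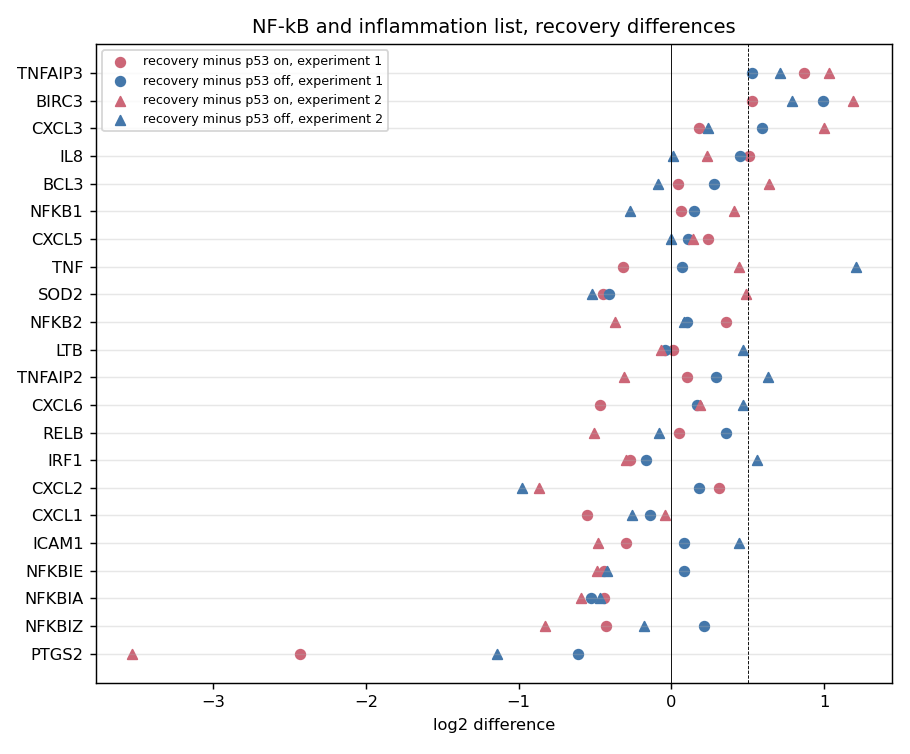
Recovery differences (log2, horizontal axis) of the 22 NF-kB and inflammation genes over the dim value, against p53 on in red and p53 off in blue, with circles for experiment 1 and triangles for experiment 2; the broken line marks 0.5. TNFAIP3 and BIRC3 are the 2 rows with all 4 points beyond the broken line, and PTGS2 lies lowest, with its 4 points between -3.53 and -0.61.

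The promoters of these 2 genes are shown for the letters that match the NF-kB consensus, in capitals. BIRC3 lies at chr11:102317234-102317483 and TNFAIP3 at chr6:137867009-137867258 (250 bases before the RefSeq start, GRCh38.p14, plus strand). The matches end 189 and 125 bases before the start of BIRC3, and 57 and 45 bases before that of TNFAIP3.
BIRC3: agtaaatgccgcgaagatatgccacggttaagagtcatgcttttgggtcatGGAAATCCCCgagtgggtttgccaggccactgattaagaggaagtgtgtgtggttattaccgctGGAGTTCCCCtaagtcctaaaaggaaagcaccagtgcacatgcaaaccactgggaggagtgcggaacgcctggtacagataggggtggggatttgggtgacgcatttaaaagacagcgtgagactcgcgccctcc
TNFAIP3: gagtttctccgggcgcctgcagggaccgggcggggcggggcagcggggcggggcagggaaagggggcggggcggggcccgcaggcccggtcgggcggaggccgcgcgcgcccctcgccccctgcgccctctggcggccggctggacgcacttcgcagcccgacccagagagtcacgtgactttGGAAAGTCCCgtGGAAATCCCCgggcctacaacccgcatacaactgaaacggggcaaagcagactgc

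Ligands and cell surface receptors supplied WNT11, GPR116, HTR1D and LRRN4. WNT11, a ligand of mainly non-canonical Wnt signalling, stood at 5.96 and 6.48 in p53 off, 6.34 and 6.76 in p53 on and 7.09 and 7.49 in recovery. Its recovery values were the highest of all 6 arrays, 2.10-fold above p53 off, while its p53 on and p53 off arrays overlapped (difference 0.33 ± 0.28, limma, adjusted p = 0.663). Of its 9 probe sets, 8 were highest in recovery in both experiments. Genes of the Wnt and stem cell list did not share this: 1 of 19 (5.26%) was highest in recovery in both experiments, beside 14.9% of all genes.

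GPR116, now named ADGRF5, encodes an adhesion G protein-coupled receptor, and it had the largest of the smallest differences, 0.79. Its values were tight within groups, with 4.39 and 4.51 for p53 off, 4.71 and 4.70 for p53 on, and 5.50 and 5.62 for recovery. The 3 groups did not overlap, and recovery stood 1.81-fold above p53 on and 2.16-fold above p53 off. Of 22 probe sets, 14 were highest in recovery in both experiments and 11 by at least 0.5. The small excess of p53 on over p53 off, 0.25 ± 0.19, was not called (limma, adjusted p = 0.618).

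HTR1D, which encodes a serotonin receptor that inhibits adenylyl cyclase, had the same shape as DTL. It stood at 5.25 and 5.70 in p53 off, 4.50 and 4.49 in p53 on, and 6.17 and 6.30 in recovery, again with no overlap between groups. The difference of p53 on from p53 off was not called without the block (-0.98 ± 0.22, limma, adjusted p = 0.0988) and was called with it (adjusted p = 0.0129). From there the gene value stood 3.33-fold higher in recovery, and 1.69-fold above p53 off. All 4 of its probe sets were highest in recovery in both experiments, 2 of them by at least 0.5. LRRN4, a membrane protein with leucine-rich repeats, measured 4.63 and 5.35 with p53 off, 4.48 and 4.92 with p53 on, and 5.48 and 6.02 in recovery. Recovery of LRRN4 stood 2.08-fold above p53 on, and experiment 2 lay above experiment 1 in every group. The mean of its probe sets gave a smallest difference of 0.29.

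Several members act in membrane traffic or transport, and this grouping and those that follow were made after the members were known. RAB27B, a small GTPase that docks secretory vesicles at the plasma membrane, stood at 5.66 and 6.42 in p53 off, 5.48 and 5.51 in p53 on, and 6.42 and 7.04 in recovery. Its recovery array of experiment 1 was level with the p53 off array of experiment 2, so the groups touch. Of its 10 probe sets, 9 were highest in recovery in both experiments, 8 of them by at least 0.5, and with their mean the smallest difference was 0.89, the largest of the 32 genes. C20orf54, now SLC52A3, a riboflavin transporter, was nearly level in p53 off (6.16 and 6.53) and p53 on (6.20 and 6.51) and stood at 6.92 and 7.33 in recovery. Its p53 on and p53 off arrays overlapped, with a difference of 0.01 ± 0.25 (limma, adjusted p = 0.996) and 5 of 5 probe sets highest in recovery.

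AP4M1, a subunit of the AP-4 adaptor that sorts cargo at the trans-Golgi, stood at 6.25 and 6.38, then 6.15 and 5.86, then 6.99 in each recovery array. In 16 of its 17 probe sets recovery was highest in both experiments. CLIC5, a chloride channel family protein tied to the actin cytoskeleton, entered narrowly, with a smallest difference of 0.507, and stood at 4.08 and 4.48, then 4.42 and 4.67, then 5.37 and 5.18. Its groups p53 off and p53 on overlapped and recovery lay above both. SYT13, an atypical synaptotagmin, SLC26A2, a sulfate transporter, and HEATR5B, a factor of endosomal sorting, stood in recovery 1.95-fold, 1.51-fold and 1.74-fold above p53 on. HEATR5B had the most probe sets of any member, 36, and 23 of these were highest in recovery in both experiments, but only 4 by at least 0.5.

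Among regulators of growth signalling and protein turnover, PRR5L is a partner of the kinase complex mTORC2. Its values were 7.50 and 7.59 in p53 off, 7.12 and 6.81 in p53 on, and 8.16 in each recovery array. The groups did not overlap and all 14 of its probe sets were highest in recovery in both experiments, 6 by at least 0.5. The p53 on difference of -0.58 ± 0.21 was not called (limma, adjusted p = 0.24, or 0.0754 with the replicate block). TMEM218, a protein of the ciliary transition zone, followed the same course, from 6.95 and 7.28 to 6.54 and 6.59 and then to 7.60 and 8.04, with all 3 probe sets highest in recovery. KLHL22, a substrate adaptor of a CUL3 ubiquitin ligase, was level in p53 off (4.70 and 4.96) and p53 on (4.69 and 5.04) and stood at 5.35 and 5.92 in recovery. Of its 7 probe sets, 5 were highest in recovery in both experiments, but only 1 by at least 0.5. Their mean gave a smallest difference of 0.44. APH1B, a subunit of gamma-secretase, stood 1.75-fold above p53 on, and 2 of its 7 probe sets were highest in recovery in both experiments.

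Enzymes of lipid, hormone, redox and NAD metabolism made up another group. DIO3, the deiodinase that inactivates thyroid hormone, stood at 5.08 and 4.99, then 4.88 and 4.81, then 5.83 and 5.61, with arrays of a group close together and no overlap between groups. NMNAT1, the nuclear enzyme that makes NAD, stood at 4.17 and 3.28 in p53 off, 4.70 and 3.83 in p53 on, and 5.32 and 4.40 in recovery. In NMNAT1 every group was lower in experiment 2, and the steps within each experiment were alike, 0.53 and 0.55 up to p53 on and 0.62 and 0.57 from there to recovery. The first of these steps was not called (0.54 ± 0.45, limma, adjusted p = 0.664, or 0.0726 with the block). These are steps of the median, and single probe sets of NMNAT1 did not all follow them. Probe set 7 went from 3.92 to 4.17 up to p53 on in experiment 1 but from 3.39 to 2.60 in experiment 2. Of its 10 probe sets, 4 were highest in recovery in both experiments, 1 of them by at least 0.5. With their mean the smallest difference of NMNAT1 was 0.38.

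CYP2A7, a cytochrome P450 gene, stood at 3.35 and 2.92, then 3.76 and 4.20, then 4.30 and 4.82. Its p53 on arrays lay above both p53 off arrays, by 0.85 ± 0.28 on average (limma, adjusted p = 0.216), and both control values were under the dim value of 3.62. The mean of its p53 off and p53 on arrays together was also under it, so CYP2A7 passed the filter only through its recovery arrays. CYP2A7 has near-identical relatives among the CYP2A genes, which its probe sets may not tell apart, and 3 of its 5 probe sets were highest in recovery. Another stood below its p53 on values, at 3.07 and 1.22 in recovery against 3.76 and 4.20. Those p53 on values were also the gene values of CYP2A7, so the median passed to other probe sets in recovery. With the mean of the probe sets the smallest difference of CYP2A7 was about 0. Its membership therefore rests on the summary used. PISD, which makes phosphatidylethanolamine in mitochondria, stood at 3.65 and 3.41, then 3.72 and 4.07, then 4.62 and 4.82, on 1 probe set. Its p53 off value of experiment 2 was under the dim value. Some array lay under the dim value in 6 members: CYP2A7, DHRS4, NMNAT1, PISD, RPL23AP82 and SLC26A2. DHRS4, a reductase with near-identical neighbours in its gene cluster, stood at 3.17 and 4.12, then 4.07 and 3.19, then 4.73 and 4.93. Its p53 on difference was 0.91 in experiment 1 and -0.93 in experiment 2, and 1 of its 3 probe sets was highest in recovery in both experiments.

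Ribosome and mitochondrial genes were represented by PPAN, C21orf57, MTRF1 and CCDC51. PPAN, a factor of large ribosomal subunit assembly, had gene values of 5.85 and 5.93, then 5.55 and 6.00, then 6.52 and 6.65, with recovery above all other arrays. As for TNFAIP3, none of its probe sets (0 of 5) was highest in recovery in both experiments, and with the mean of the probe sets the smallest difference was -0.19. C21orf57, now YBEY, an endoribonuclease that acts on mitochondrial ribosomal RNA, likewise had a smallest difference of -0.04 with the mean, and 3 of its 7 probe sets were highest in recovery. MTRF1, a mitochondrial release factor, stood 1.82-fold above p53 on, with 10 of 16 probe sets highest. CCDC51, a subunit of a mitochondrial potassium channel, was just inside the threshold at 0.514, with values of 5.70 and 5.56, 5.63 and 4.97, and 6.22 and 6.19. Across the 43 ribosome biogenesis genes over the dim value, 9 (20.9%) were highest in recovery in both experiments, beside 14.9% of all genes tested. PPAN, which the rule chose for that pattern, is among the 9 and is also counted in the list values that follow. Against p53 on, limma called 0 of the 43 higher without the block and 2 with it, beside 0.143% and 3.85% of all genes. The rule chose PPAN by this contrast, so the calls are not read as a trait of the list.

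Glycan enzymes and a mixed remainder completed the 32 genes. B3GAT3, which finishes the linker on which glycosaminoglycan chains are built, stood at 5.8 and 6.07, then 5.32 and 6.02, then 6.39 and 6.96. MGAT3, which adds the bisecting residue to N-glycans, had 4.38 and 4.30 with p53 off, 3.85 and 3.74 with p53 on, and 4.96 and 4.82 in recovery. The MGAT3 groups did not overlap, but 2 of its 5 probe sets were highest in recovery and their mean gave a smallest difference of 0.12. GBP3, an interferon-inducible GTPase gene, was the last inside the threshold, at 0.504, with 4.46 and 4.44, then 4.48 and 3.94, then 4.98 and 5.23. DDX60L, a helicase-like gene, stood 1.78-fold above p53 on, with 12 of 18 probe sets highest in recovery. RPL23AP82, a ribosomal protein pseudogene with near-identical copies that its 1 probe set may not tell apart, stood 1.84-fold above p53 on. Just outside the threshold lay METTL3 at 0.4998, TMEM150A at 0.4969 and HKDC1 at 0.4954, so small shifts decide membership at the edge.

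The 2 experiments differed in ways that bear on single members. In limma with the replicate block, 4 members differed between experiment 2 and experiment 1 (12.5%), where 12.7% of all genes tested were called, 2.72% higher and 9.94% lower. BIRC3 was higher in experiment 2 by 0.74 ± 0.18 (limma, adjusted p = 0.0314), HEATR5B by 0.58 ± 0.15 (adjusted p = 0.0357) and LRRN4 by 0.57 ± 0.14 (adjusted p = 0.0326). NMNAT1 was lower, by -0.89 ± 0.14 (limma, adjusted p = 0.00476). The LRRN4 call was lost without any 1 array, with no filter on dim genes and with the mean of probe sets. The BIRC3 and HEATR5B calls were lost with no filter and without any 1 p53 off or recovery array, while NMNAT1 was still called in each of these fits. In 14 members the gap between experiments within some group was larger than the smallest recovery difference.

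The probe sets of the members gave a second view of the same arrays, though the gene values that chose the members are their medians. Of 296 probe sets, 202 (68.2%) were highest in recovery in both experiments, where 14.2% of all probe sets of tested genes were, and 101 (34.1%) by at least 0.5, where 0.999% were. In 8 members every probe set was highest in recovery, and PISD and RPL23AP82, with 1 probe set each, are among them. With the mean of the probe sets, 13 of the 32 genes still met the margin of 0.5: AP4M1, B3GAT3, BIRC3, C20orf54, DDX60L, DTL, GPR116, HTR1D, PISD, PRR5L, RAB27B, RPL23AP82 and WNT11.

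Promoters of 25 members were found in the RefSeq table (GRCh38.p14) and searched on both strands over the 250 bases before the start, beside 10933 promoters of tested genes. The NF-kB consensus matched 8 members (32.0%) and 12.2% of all: KLHL22, DIO3, AP4M1, NMNAT1, CYP2A7, BIRC3, TNFAIP3 and CLIC5. That broad form was chosen after the promoters had been seen, and the stricter form tried first matched 1 member (4.0%), TNFAIP3, and 1.34% of all. TTTNGCGC matched DTL and AP4M1 (8.0% against 2.33%), the E-box CACGTG 4 members (16.0% against 8.86%), and TGACGTCA, the cyclic AMP response element, DTL and B3GAT3 (8.0% against 2.77%). The AP-1 form TGANTCA matched 2 (8.0% against 4.19%), TATAAA 3 (12% against 6.38%), and the heat shock element 0 (0.284% of all). The median GC content was 63.2% in members and 64.8% in all. A match describes letters in the window and is no evidence of binding.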

How the data were processed

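RNA from 6 HT29-tsp53 cultures was hybridised to Gene 1.0 ST arrays (Affymetrix). The authors deposited log2 signals for 257430 probe sets; their program, background correction and normalization: not given in the sources used here. Column medians lay between 5.24 and 5.31. Probe sets with 1 gene symbol (224320) were reduced to the median per gene, giving 18701 genes, and genes whose mean was under the 25th percentile (3.62) were left out, which left 14018. The comparisons used limma 3.58.1 (R 4.3.3), fitted on all 6 arrays, with Benjamini-Hochberg adjustment over all genes and calls at an adjusted p under 0.05. The fit was also run on simulated data with independent noise and no difference between experiments. That run therefore cannot show how the fit behaves on arrays that differ between experiments. With 2 arrays against 2, an exact permutation test cannot go below p = 0.333, so no such test was used.

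The experiment number in the labels pairs the arrays: deviations of same-numbered arrays from their group means correlated at 0.496, 0.552 and 0.63, so a fit with this number as a replicate block was also made. Named genes were the 12 members with the largest smallest difference, the 4 with the highest and the 4 with the lowest p53 on difference, the members on a gene list, and the 3 genes just inside and the 3 just outside the threshold; the remaining members, CCNE1, CCND1, GINS2 and NFKBIA were named after their values were seen. The members and gene lists were chosen with earlier results of these data known. The p53 gene was not analysed here, and 2 genes that met the rule are not reported here. Alternatives were another dim value, the mean of probe sets, quantile normalization, the block, fewer arrays and other margins.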

Additional observations from a re-analysis of the deposited data

How the results depend on the processing

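The number of genes meeting the rule was 32, and it became 18 with the dim value at the 50th percentile, 87 with a margin of 0.4 and 14 with 0.6; with 1 experiment only it was 268 to 295. The mean of probe sets gave 24 genes, of which 13 were among the 32. For p53 on against p53 off, 208 genes were called; the count was 1606 with the replicate block, 50 with only the 4 arrays compared, 113 with no filter on dim genes, 480 with the mean of probe sets, and 3 to 50 when 1 array was left out. The members called, an alternative series added after seeing the data, went from 1 to 2 with the block or the mean of probe sets and to 0 (limma, 5 with an unadjusted p under 0.05) with the 4 arrays or no filter; leaving out 1 array gave 0 (2 to 6 unadjusted). DTL kept its direction throughout, at -1.35 with the 4 arrays and with no filter, where its call was lost, and -1.44 to -1.25 when 1 array was left out. HTR1D was called with the block (-0.98) and the mean (-1.07). For recovery against p53 on, 60 genes became 1014 with the block, 0 with the 4 arrays (limma, 1534 unadjusted) and 182 with the mean. For recovery against p53 off, 4 became 84 with the block. Calls of members are not given for these contrasts, which chose the members. Between experiments, 1775 became 1108 with no filter and 1120 to 1574 without 1 array; members called went from 4 to 1 with no filter, 7 with the mean and 1 to 5 without 1 array. The median p53 on difference of the members was -0.11, and -0.37 to -0.07 with 1 experiment left out. The cause of these shifts was not tested. The number of arrays limits the precision of every value.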
